A study of Mus musculus with 267 samples.

Results

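Spi1, Cebpa, Cebpb and Runx1 encode the transcription factors PU.1, C/EBPα, C/EBPβ and RUNX1, which set the identity of the myeloid lineage. Their surroundings were described as every region of the deposited tag tables, and every peak of the deposited factor lists, whose centre lay within 50 kb of the start of 1 of these genes (mm10, GENCODE vM21). The genes are 4 of 21951 protein-coding genes of the annotation. They held 97 of 67742 open chromatin regions in C57BL/6J (C57), 68 of 54022 in BALB/cJ (BALB), 77 of 68932 in NOD/ShiLtJ (NOD), 77 of 60175 in PWK/PhJ (PWK) and 66 of 54755 in SPRET/EiJ (SPRET), 109 of 77955 regions of the C57 time course, 51 of 30675 EGR2 sites of the EGR2 time course and 8 of 4677 sites of the Egr2 knockout tables.

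All libraries came from bone marrow-derived macrophages (BMDMs), grown from mouse bone marrow with M-CSF, and were either untreated (basal) or given IL-4 at 20 ng/mL. In the study's methods the mice were female. BMDMs of the 5 strains were compared without IL-4 and after 24 h, and C57 also at 1 and 6 h. Egr2 fl/fl BMDMs, which carry floxed Egr2 alleles without LyzM-Cre, were compared with LyzM-Cre Egr2 fl/fl BMDMs, in which the myeloid lysozyme promoter drives Cre. These Egr2 fl/fl groups carry the floxed alleles on both sides of the comparison, and no library of Cre without floxed Egr2 was used here. ChIP-seq, which counts DNA fragments bound by a protein or marked nucleosome, was made for H3K27ac (acetylated active promoters and enhancers), H3K4me2, H3K4me3 (promoters), RNA polymerase II (Pol II) and the factors PU1, CEBPb, STAT6, PPARg and EGR2. A group had 2 to 4 libraries, except Pol II at 1 h of IL-4 and Pol II in each Egr2 genotype, which had 1. Values are tags normalised to a library of 10000000 tags. The window for histone marks and Pol II was 1000 bp wide and centred on the region, so neighbouring regions can share tags. The genes and the lists of related genes below were chosen with earlier results of these data known.

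PU.1 is an ETS family factor that opens macrophage enhancers together with the C/EBP and RUNX factors. The genes for these factors are themselves controlled by enhancers that PU.1, C/EBP and RUNX proteins bind, so that the factors keep their own and each other's expression going. IL-4 acts through STAT6, which is phosphorylated within minutes of receptor binding, and IL-4 treated macrophages also make EGR2 and PPARγ, a zinc finger factor and a nuclear receptor that binds DNA with RXR. Binding of PU1 near Spi1 and of CEBPb near Cebpb is called auto-binding here, and all other pairs cross-binding. No RUNX1 or C/EBPα libraries were made.

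The start of each gene was the 5′ end of its annotation record. Spi1 (ENSMUSG00000002111.8) lies at chr2:91082390-91115756 on the plus strand, but its record begins with a transcript without a consensus coding sequence (CCDS), and the CCDS transcript starts 13706 bp further downstream. The upstream regulatory element of Spi1, described 14 kb upstream of its start, is therefore at the start of the record: a region was found 77 bp from that position when measured from the CCDS transcript. Cebpa (ENSMUSG00000034957.10) lies at chr7:35119293-35121928 on the plus strand and Cebpb (ENSMUSG00000056501.3) at chr2:167688915-167690418 on the plus strand. Runx1 (ENSMUSG00000022952.17) lies at chr16:92601466-92826149 on the minus strand, and its start is the distal promoter, since the proximal CCDS promoter lies 128821 bp downstream and outside the window. Starts of other protein-coding genes within the windows were those of Rapsn, Psmc3, Slc39a13 and Mybpc3 near Spi1 and of Gm20431 and Tmem189 near Cebpb, Tmem189 being 907 bp from the Cebpb start. An antisense gene, Gm45091, starts 312 bp from Cebpa, and ChIP tags carry no strand.

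The 155 libraries with values of their own held 4691644 to 29050468 tags (median 12936233), so 16 normalised tags stood for 7.51 to 46.5 reads. Of 8 macrophage markers, 8 had a promoter region in C57 and 7 carried at least 16 H3K4me3 tags there, while the promoter regions of B cell markers had 0.245 to 1.34 tags (2 of 4 with a region), no T cell marker of 4 had a region, and the stromal marker with a region had 15.9. Promoters of Epor (1 of 3 erythroid markers), S100a8 (1 of 4 granulocyte markers) and both dendritic cell markers, Zbtb46 and Flt3, carried 18.4 to 286 H3K4me3 tags. The share of H3K27ac tags inside regions differed with treatment in C57, at 65.4% and 59.6% in the basal and 43.2% and 38.2% in the 24 h libraries, and was 20.5% in 1 of the 1 h libraries and 28.7% in 1 of the BALB 24 h libraries. Its part in the values below was not tested. The p-values measure the spread between the 2 to 4 libraries of a group, except for Pol II at 1 h of IL-4, where 1 library has no spread of its own.

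PU1 bound near its own gene at more places than any other factor in C57, as it did near each of the other genes. Its C57 lists were also the longest, at 85916 peaks at basal and 90308 at 24 h. The basal list held 18 PU1 peaks within 50 kb of the Spi1 start and the 24 h list 22, against a median of 6 peaks per protein-coding gene in both lists. The PU1 peak with the most tags lay 11.7 kb upstream, close to the start of the neighbouring gene Slc39a13, and was among the top 0.743% of all basal PU1 peaks and the top 0.507% after IL-4. PU1 peaks 1.1 kb upstream and 0.7 and 2.3 kb downstream, the surroundings of the upstream regulatory element, were among the top 3.69%, 4.16% and 6.06% of the basal list. Across the 5 strains and both conditions, 28 PU1 sites were found near Spi1 and 11 of them were in all 10 lists.

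CEBPb auto-binding was sparser. Near Cebpb the C57 lists held 5 CEBPb peaks at basal and 8 after 24 h of IL-4, against medians of 1 and 2 per gene. The strongest lay 39.4 kb upstream, within an intron of the annotation, among the top 8.76% of the basal list and the top 2.22% after IL-4, and it was present in all 10 lists. Further CEBPb peaks lay 21.8 and 28.5 kb downstream (top 8.53% and 9.86% after IL-4). A CEBPb peak 1.1 kb upstream of the Cebpb start was in no basal list and in the 24 h lists of C57, BALB, NOD and PWK.

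The sequences below are of sites that the results turn on. These are the auto-bound site beside the Spi1 regulatory element, CEBPb sites near Cebpb, and EGR2 and PPARg sites described further on. Each is given as 200 bases around the peak centre on the forward strand of mm10, from the RefSeq copy of that assembly. Capitals mark matches, on either strand, to AGGAAG (ETS), TTGCNNAA (C/EBP), GNGTGGG (EGR), TTC and GAA with 4 bases between them (STAT6), TGTGGT (RUNX), TGANTCA (AP-1) and GGNCANA followed by NGNCA (DR1-like, for nuclear receptors, a motif chosen after the sequence was seen).
Spi1 PU1 site, 0.7 kb downstream, chr2:91082998-91083197: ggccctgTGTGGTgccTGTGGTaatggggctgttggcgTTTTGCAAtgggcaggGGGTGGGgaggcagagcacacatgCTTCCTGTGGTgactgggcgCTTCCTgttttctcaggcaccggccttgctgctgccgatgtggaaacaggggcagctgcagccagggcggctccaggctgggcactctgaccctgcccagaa
Spi1 EGR2 site, 8.6 kb downstream, chr2:91090925-91091124: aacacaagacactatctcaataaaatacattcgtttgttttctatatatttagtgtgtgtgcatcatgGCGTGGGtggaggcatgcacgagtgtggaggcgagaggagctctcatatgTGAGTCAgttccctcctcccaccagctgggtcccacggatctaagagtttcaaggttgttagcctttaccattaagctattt
Cebpa EGR2 site, 0.2 kb upstream, chr7:35118962-35119161: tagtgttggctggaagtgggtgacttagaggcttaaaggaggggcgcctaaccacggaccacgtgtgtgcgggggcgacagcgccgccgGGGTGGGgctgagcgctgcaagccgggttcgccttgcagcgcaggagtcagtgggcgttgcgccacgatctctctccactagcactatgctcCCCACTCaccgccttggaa
Cebpb CEBPb site, 39.4 kb upstream, chr2:167649385-167649584: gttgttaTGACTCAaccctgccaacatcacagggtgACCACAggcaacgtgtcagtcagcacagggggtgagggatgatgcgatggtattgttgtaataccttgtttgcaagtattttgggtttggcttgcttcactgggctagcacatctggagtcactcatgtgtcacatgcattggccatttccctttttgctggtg
Cebpb CEBPb site, 21.8 kb downstream, chr2:167710657-167710856: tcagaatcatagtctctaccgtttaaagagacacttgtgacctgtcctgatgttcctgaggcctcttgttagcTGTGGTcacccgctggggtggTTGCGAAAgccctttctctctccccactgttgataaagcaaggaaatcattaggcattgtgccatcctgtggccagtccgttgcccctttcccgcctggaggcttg
Cebpb PPARg site, 35.2 kb downstream, chr2:167723993-167724192: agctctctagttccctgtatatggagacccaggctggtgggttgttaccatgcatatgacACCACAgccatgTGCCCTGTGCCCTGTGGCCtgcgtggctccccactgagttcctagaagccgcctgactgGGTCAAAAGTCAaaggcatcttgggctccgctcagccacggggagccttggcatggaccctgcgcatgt
Runx1 EGR2 site, 26.3 kb upstream, chr16:92852393-92852592: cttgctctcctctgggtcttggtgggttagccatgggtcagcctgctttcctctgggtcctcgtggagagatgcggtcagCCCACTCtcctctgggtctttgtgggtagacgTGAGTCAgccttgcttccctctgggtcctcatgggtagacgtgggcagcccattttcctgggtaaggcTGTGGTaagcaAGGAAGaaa

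The auto-bound Spi1 site held 2 ETS, 3 RUNX, 1 C/EBP and 1 EGR match, and 1 ETS match overlapped a RUNX match by shared bases. The CEBPb site 39.4 kb upstream of Cebpb held 1 AP-1 and 1 RUNX match and no C/EBP match in these letters, while the site 21.8 kb downstream held 1. The PPARg site held 3 DR1-like matches, of which 2 overlapped each other. Over whole C57 lists the factor's own letters were found in 65.0% of 85915 basal PU1 peaks, 35.8% of 37489 CEBPb, 44.0% of 29400 EGR2 and 4.95% of 39088 PPARg peaks at 24 h. Among peaks near the 4 genes, ETS letters were in 15 of 22 PU1 peaks near Spi1, 16 of 21 near Cebpa, 13 of 20 near Cebpb and 20 of 27 near Runx1 at 24 h. C/EBP letters were in 4 of 10 CEBPb peaks near Spi1, 4 of 10 near Cebpa, 4 of 8 near Cebpb and 3 of 10 near Runx1. DR1-like letters were in 2 of 17 PPARg peaks near Cebpb and in 0 of 15, 0 of 9 and 0 of 13 near Spi1, Cebpa and Runx1, and EGR letters in 8 of 12, 7 of 10, 9 of 15 and 5 of 12 EGR2 peaks near Spi1, Cebpa, Cebpb and Runx1.

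Cross-binding was dense at all 4 genes. CEBPb at the Spi1 site 0.7 kb downstream ranked among the top 2.08% of basal and the top 0.752% of 24 h CEBPb peaks in C57. EGR2 at the Cebpa promoter, 0.2 kb upstream, was 1 of the strongest EGR2 peaks of the genome: it ranked 21 of 8437 peaks at basal, 13 of 13562 at 1 h, 6 of 13072 at 6 h and 17 of 29407 at 24 h of IL-4. EGR2 at Cebpb, 26.4 kb downstream, ranked 166 at 24 h, and the PPARg peak 35.2 kb downstream of Cebpb ranked 853 of 39088. PU1 peaks numbered 19 at basal and 21 at 24 h near Cebpa, 17 and 20 near Cebpb, and 23 and 27 near Runx1.

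After 24 h of IL-4 more peaks of PPARg and EGR2 were listed near the genes, in lists that were also longer. The C57 PPARg lists held 3, 3, 5 and 4 peaks near Spi1, Cebpa, Cebpb and Runx1 at basal and 15, 9, 17 and 13 after IL-4, with medians of 0 and 2 per gene, and 0.0639% of protein-coding genes had as many as the 17 of Cebpb. The whole list grew from 7627 to 39088. EGR2 peaks went from 6, 4, 2 and 3 at basal to 7, 5, 5 and 8 at 1 h, 9, 6, 4 and 7 at 6 h and 12, 10, 15 and 12 at 24 h. Peaks of STAT6, the factor that IL-4 activates, numbered 9, 7, 9 and 13 at basal, 7, 6, 5 and 11 at 1 h, 8, 6, 10 and 11 at 6 h and 10, 11, 11 and 20 at 24 h, in lists of 30589, 24376, 23884 and 39537 peaks. CEBPb peaks numbered 7, 4, 5 and 6 at basal and 10, 10, 8 and 10 at 24 h in lists of 18043 and 37499. A list stands for a group without replicates, so these counts have no error and no test.

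The share of sites listed in every strain differed between factors, in lists that also differed in kind and length. Lists of PPARg, and of EGR2 outside C57, gave a plain score and peaks with a median width of 200 bp. The other lists gave an IDR score, for reproducible peaks. Basal EGR2 lists held 6201 peaks in PWK and 28842 in BALB. The part of these differences in the shares below was not tested. Of 129 PU1 sites near the 4 genes 41 were in all 10 lists, against 22.5% of PU1 sites genome-wide. For CEBPb these were 11 of 57 sites (11.4% genome-wide), for STAT6 8 of 85 (5.54%), for EGR2 6 of 82 (5.05%) and for PPARg 5 of 88 (2.53%). Sites listed at 24 h in at least 1 strain and at basal in none were 14 of PU1, 21 of CEBPb, 27 of STAT6, 31 of EGR2 and 47 of PPARg. Genome-wide such sites were 9.93%, 33.7%, 35.5%, 42.2% and 60.6% of the sites of these factors. Sites listed only at basal were 14, 2, 11, 5 and 5 near the genes, against 15.1%, 4.92%, 13.6%, 7.28% and 7.06% genome-wide.

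Peaks of the 5 factors were often at the same place. Of 188 merged sites near the 4 genes, 28 (14.9%) carried a peak of each factor in at least 1 list, against 7.20% of 235906 merged sites in the genome. The site in the most lists was the Spi1 site 0.6 kb downstream, in 49 of 50, where EGR2 in 1 strain at basal was the missing list. Sites 39.4 kb upstream of Cebpb and 41.4 kb upstream and 24.4 kb downstream of the Runx1 start, the last being the described intronic enhancer of Runx1, were in 48 each, and the Cebpa promoter site 0.2 kb upstream was in 41. At the other extreme the Cebpb site 35.1 kb downstream was in PPARg lists of 4 strains at basal and all 5 after IL-4, in STAT6 lists of 4 strains and EGR2 lists of 3 strains after IL-4, and in PU1 and CEBPb lists of 1 strain each, after IL-4.

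**Figure D1:**
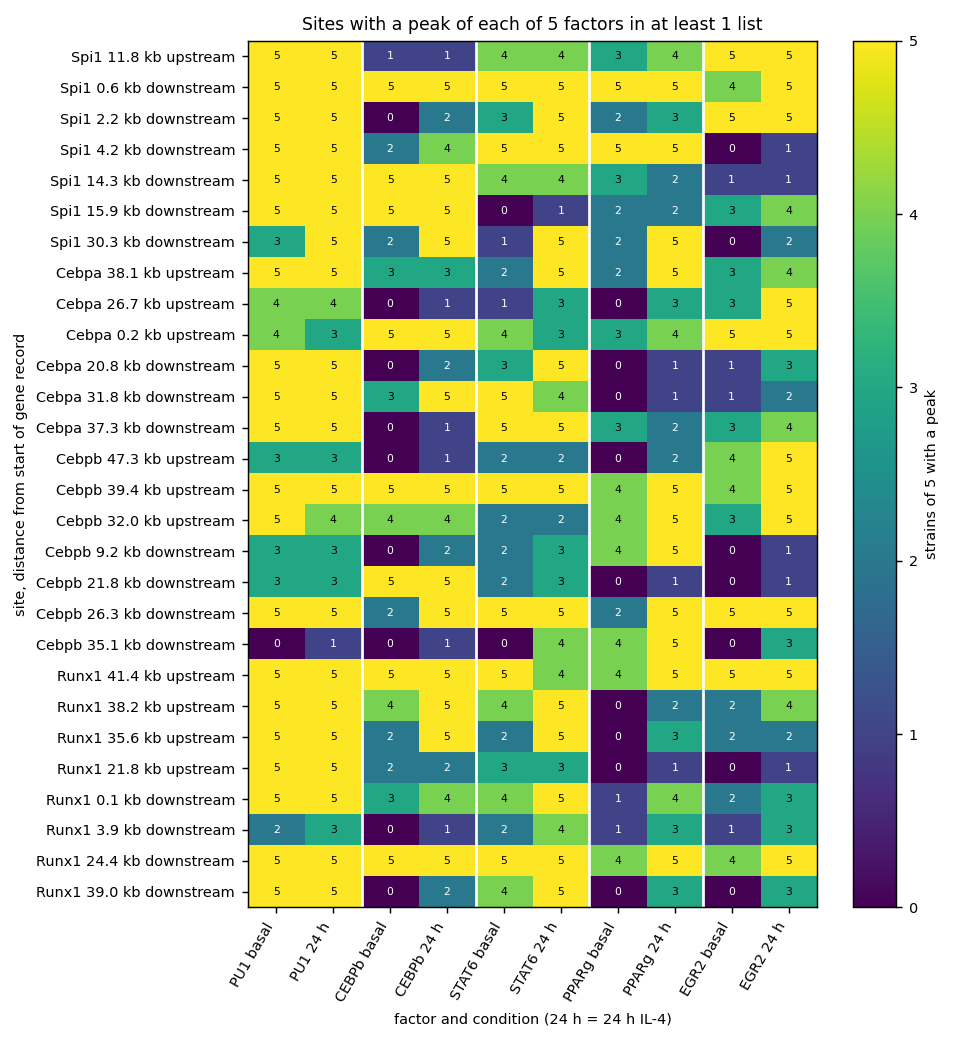
Each row is 1 of the 28 sites near the 4 genes with a peak of every factor in at least 1 list, and each column a factor at basal or after 24 h of IL-4; the number and colour give in how many of the 5 strains the list held a peak. PU1 columns are mostly at 5, while PPARg and EGR2 columns hold lower numbers at basal than at 24 h at most sites.

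Some sites were listed after IL-4 alone in every strain, and some split the strains. STAT6 at the Runx1 site 26.3 kb upstream was in no basal list and in all 5 lists at 24 h. PU1 peaks 26.7 kb downstream of the Runx1 start and 32.6 kb downstream of Cebpa were likewise listed in all 5 strains at 24 h and in none at basal. These were 1 of 85 STAT6 and 2 of 129 PU1 sites near the genes. Genome-wide such sites were 0.969% of STAT6 and 0.0691% of PU1 sites. In the better-scoring part of each list no PU1 site near the genes and no STAT6 site near Runx1 had this pattern. Near Spi1, the site 30.3 kb downstream held CEBPb and PPARg at basal in PWK and SPRET alone, and in all 5 strains at 24 h. PU1 12.8 kb downstream of Cebpb was listed in C57, BALB and NOD in both conditions and in neither PWK nor SPRET list. At Cebpb 26.3 kb downstream, CEBPb and PPARg were listed at basal only in PWK and SPRET and at 24 h in all 5 strains. The basal CEBPb lists held 32353 and 31109 peaks in PWK and SPRET, against 18043 in C57, 13722 in BALB and 19060 in NOD. For PPARg the basal lists held 18402 and 19684 in PWK and SPRET, against 7627, 6524 and 12529 in C57, BALB and NOD. The part of list length in these patterns was not tested.

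The 4 genes differed in their H3K27ac landscape. Around Spi1 the most acetylated region lay beside the position of the upstream regulatory element, 0.8 kb downstream of the record start. It had 1712 and 1419 tags in C57 at basal and 789 and 730.5 after 24 h of IL-4. The promoter of the CCDS transcript, 14.4 kb downstream, had 950.5 and 814 tags at basal and 466 and 379 at 24 h. Both were lower in both IL-4 libraries than in both basal libraries, with differences of -1.04 ± 0.25 (log2 fold change ± SE, limma adjusted p = 0.119) and -1.06 ± 0.28 (limma adjusted p = 0.129). With libraries scaled by median ratio in place of totals the first difference was -0.69. Neither passed the test, and the median over all C57 regions was -0.28. Over C57 regions with at least 16 tags in either group the median, from group means, was -0.62. The region 10.1 kb upstream had the most negative log2 difference near Spi1, with 82.8 and 130.5 tags at basal and 32.3 and 32.2 at 24 h (limma adjusted p = 0.128). The region 0.4 kb upstream, nearest the position of the regulatory element, differed by -1.11 (limma adjusted p = 0.128). The strongest distal region away from gene starts lay 2.0 kb downstream, with 1398 and 1112 against 665 and 588 tags.

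At Cebpa the promoter region, 0.1 kb upstream, had 153 and 226 H3K27ac tags at basal and 226 and 224 at 24 h, values that overlapped between conditions. The Cebpa region 1.1 kb upstream had 95.7 and 176 against 200.3 and 272 tags, and here both IL-4 libraries were the higher ones. The described Cebpa enhancer, in the region 36.7 kb downstream, was weaker, with 25.1 and 69.2 tags at basal and 13.6 and 24.3 at 24 h. The extremes of the log2 difference near Cebpa were weak regions, 26.7 kb upstream with 1.36 and 16.4 tags at basal and 12.7 and 31.5 at 24 h, and 5.7 kb downstream with 8.14 and 25.7 against 5.09 and 4.59. The promoter, the region 1.1 kb upstream and the enhancer did not pass the test (limma adjusted p = 0.662, 0.282 and 0.313).

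Cebpb had its strongest distal acetylation 32.1 kb upstream, in an intron of the annotation, with 1007 and 896 tags at basal and 641 and 613 at 24 h. The promoter region, 0.2 kb downstream, had fewer tags and libraries that lay far apart, 405 and 146 at basal and 190.1 and 76.1 at 24 h. The region 35.1 kb downstream, which holds the PPARg site shown above, had few tags at basal, 6.11 and 4.99, and 42.4 and 34.8 at 24 h, a difference of 2.59 ± 0.50 (log2, limma adjusted p = 0.112). That was the largest positive log2 difference near Cebpb among regions above the floor, and it did not pass the test in the strain table.

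At Runx1 the distal promoter region, 0.2 kb downstream, had 351 and 394 tags at basal and 212 and 306 at 24 h. The intronic enhancer 24.4 kb downstream had 223 and 768 against 196 and 472 tags, with a spread between libraries wider than the difference. The largest positive log2 difference near Runx1 was 26.4 kb upstream, where the C57 libraries had 7.46 and 30.7 tags at basal and 47.5 and 192 at 24 h, and the largest negative one 48.0 kb upstream, with 35.3 and 106 tags at basal and 12.7 and 25.6 at 24 h. Neither passed the test (limma adjusted p = 0.167 and 0.202).

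**Figure D2:**
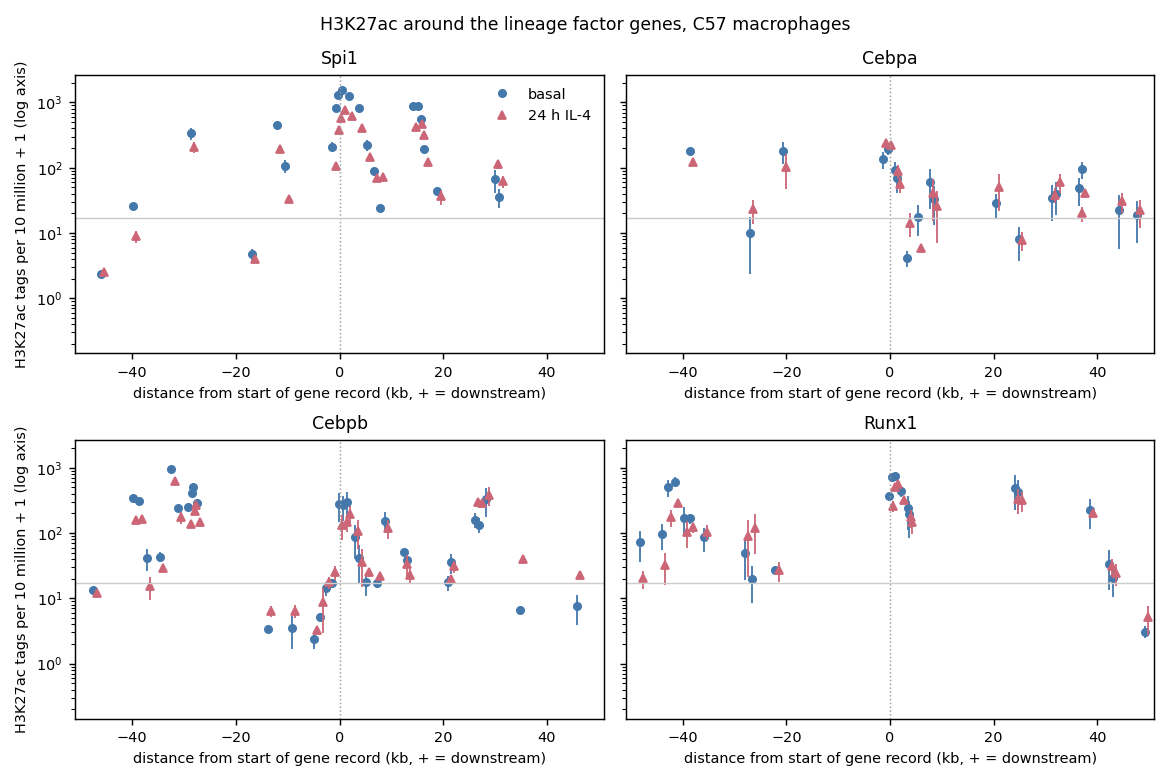
H3K27ac normalised tags plus 1 (log axis) in C57 BMDMs against the distance of each region from the start of the gene record in kb, with points at the mean of 2 libraries, lines from the lower to the higher library, and basal and 24 h points shifted apart sideways. The grey line marks the floor of 16 tags; Spi1 has its highest values around 0 kb and near 14.4 kb, and the Cebpb point 35.1 kb downstream is below the floor at basal and above it at 24 h.

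Across the 5 strains no H3K27ac region near the 4 genes passed limma at 24 h against basal. The share of all regions called was 0% in C57, 2.26% in BALB, 0.0566% in NOD, 0.535% in PWK and 1.19% in SPRET, and the median difference over all regions was -0.28, -0.30, -0.20, -0.18 and -0.09. At an unadjusted p under 0.05 stood 30 of 97 members in C57, 5 in BALB, 9 in NOD, 3 in PWK and 7 in SPRET, and edgeR's quasi-likelihood test on recovered reads also called 0 in each strain. By a fold threshold, a 2.5-fold difference of the group means with at least 16 tags in either group, which the study asked of H3K27ac and Pol II together and which is applied here to each alone, 4 regions near the genes were higher and 7 lower of 87 in C57 (17.9% of all regions), 1 and 1 of 63 in BALB (10.8%), 4 and 4 of 70 in NOD (12.8%), 3 and 0 of 62 in PWK (8.86%) and 1 and 0 of 53 in SPRET (5.44%). Medians over the C57 regions above the floor were -0.94 near Spi1, -0.08 near Cebpa, -0.46 near Cebpb and -0.45 near Runx1, against -0.62 over all regions. Median-ratio scaling moved this split: it gave 6 higher and 2 lower of 86 in C57, 3 and 0 of 63 in BALB and 7 and 2 of 71 in NOD. The C57 medians were then -0.59 near Spi1, 0.36 near Cebpa, -0.11 near Cebpb and -0.11 near Runx1, against -0.26 over all regions, so that the sign at Cebpa turned.

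At some regions the libraries lay on the same side in each strain, which is described without a test. The Cebpb region 39.5 kb upstream, site of the strongest CEBPb auto-binding, had 314 and 364 H3K27ac tags in C57 at basal and 159.6 and 154 at 24 h, while SPRET had 251 and 251 and then 132 and 136. In BALB it had 292 and 382 against 232 and 131, in NOD 369 and 314 against 252 and 233, while PWK had 106 and 183 and then 66.7 and 98.3. In all 5 strains both basal libraries were above both IL-4 libraries. The median difference over all regions was also negative in every strain, from -0.30 in BALB to -0.09 in SPRET. The region 35.1 kb downstream of Cebpb went the other way: NOD had 4.16 and 4.76 tags at basal and 31.1 and 21.4 at 24 h, PWK 10.3 and 16.4 against 45.1 and 39.1. BALB had 9.55 and 5.96 against 33.1 and 20.0 tags and SPRET 12 and 9.88 against 23.8 and 16.1. Both IL-4 libraries lay above both basal libraries in each strain. How many of all regions separate in the same way in every strain, in either direction, was not counted.

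The Spi1 region 8.0 kb downstream lay next to the EGR2 site shown above and held another EGR2 site at its centre. That central site had 37.9 and 106 EGR2 tags in C57 at basal and 74.95 and 107.5 at 24 h, which overlapped. H3K27ac in the region was 21 and 25.7 tags in C57 at basal and 60.3 and 80.1 at 24 h, and 14.7 and 29.8 against 55.7 and 47.2 in BALB. NOD had 9.14 and 42.1 against 49.9 and 115 tags, which also did not overlap, while in PWK 25.8 and 70.5 against 54.5 and 122 did, and SPRET had no matching region. The EGR2 site 8.6 kb downstream was listed at basal in BALB and at 24 h in C57, BALB and NOD.

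**Figure D3:**
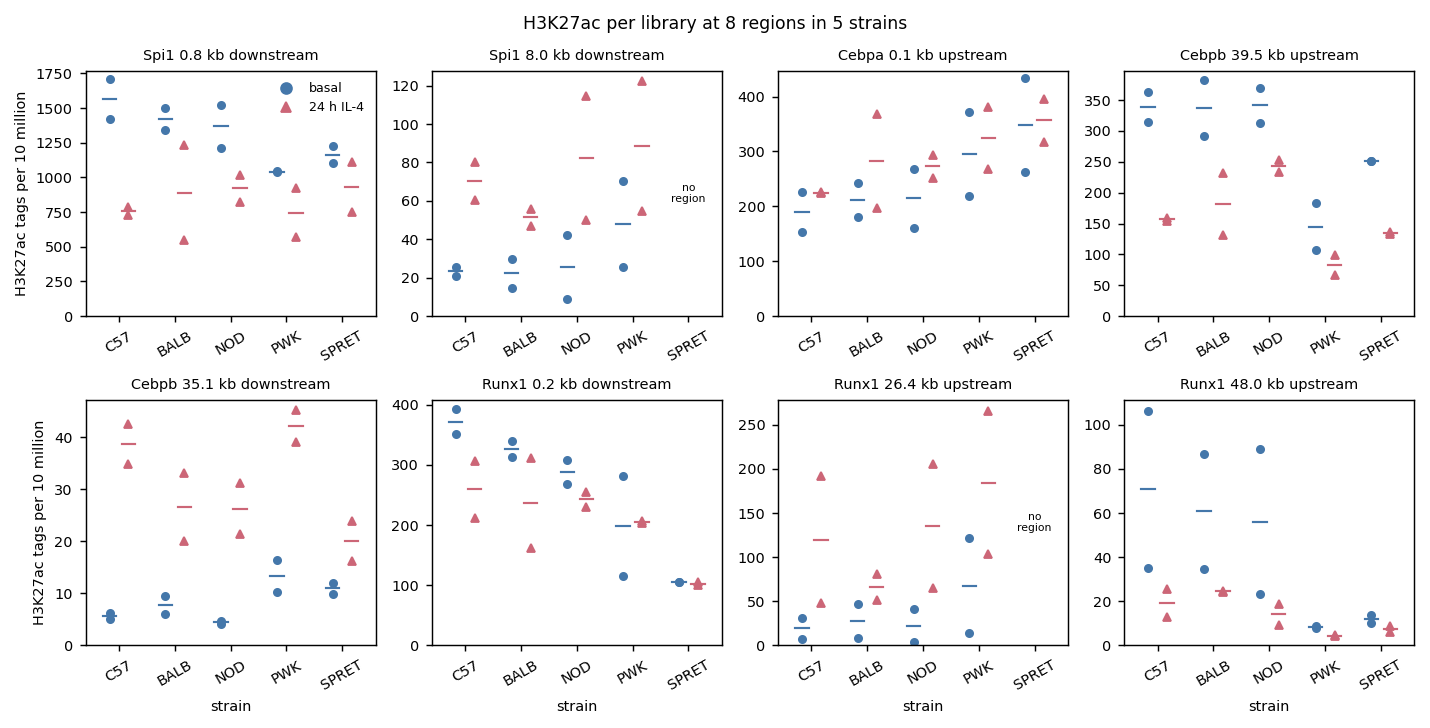
Normalised H3K27ac tags in each library (points) with group means (bars) at 8 regions near the 4 genes, in the 5 strains at basal and after 24 h of IL-4; "no region" marks a strain whose table had no region within 500 bp. At Cebpb 39.5 kb upstream the basal points lie above, and at Cebpb 35.1 kb downstream below, the IL-4 points in every strain.

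H3K4me3 marked the promoters, with 565 and 505 tags at the CCDS promoter of Spi1, 397 and 495 at Cebpa, 419 and 445 at Cebpb and 318 and 306 at Runx1 in C57 at basal. After 24 h these were 431 and 491, 323 and 358, 281 and 298, and 224 and 265. Every IL-4 library was below every basal library at these 4 promoters, and none of the differences passed the test. How many of all promoters separate in this way was not counted. Promoters of the related factors and target genes listed below had median H3K4me3 differences of -0.34 and -0.33 in C57. The share of H3K4me3 tags inside regions was 73.5% in both C57 basal libraries and 59.2% and 63.0% at 24 h, and its part was not tested. H3K4me3 called 0 members in each strain, against 0% of all regions in C57, BALB and SPRET, 0.0203% in NOD and 0.0349% in PWK, with 17, 5, 7, 4 and 1 members at an unadjusted p under 0.05 in C57, BALB, NOD, PWK and SPRET and 0 by edgeR. The Spi1 regulatory element carried a promoter mark too: the region 0.1 kb upstream had 309 and 329.6 H3K4me3 tags at basal and 169 and 166 at 24 h. H3K4me2 there was 207 and 211 against 118 and 80.5. The medians over all C57 regions were 0.11 for H3K4me3 and -0.69 for H3K4me2. H3K4me2 also called 0 members in each strain, against 0.236%, 0.0111%, 0.189%, 0.314% and 0% of all regions in C57, BALB, NOD, PWK and SPRET, with 34, 1, 6, 4 and 25 members at an unadjusted p under 0.05 and 0 by edgeR.

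Pol II at the 4 promoters overlapped between conditions in C57 or was lower after IL-4, with a median over all regions of -0.03. At the CCDS promoter of Spi1, 14.4 kb downstream, it was 275, 415, 320.5 and 287 tags at basal and 249, 229 and 236 at 24 h, without overlap (-0.43 ± 0.30, limma adjusted p = 0.805). Beside the Spi1 regulatory element, 0.8 kb downstream, it was 631, 794, 669 and 684 tags at basal and 536, 503 and 537 at 24 h. Pol II in each IL-4 library was below that in each basal one (-0.40 ± 0.30, limma adjusted p = 0.833). At Cebpa it was 341, 261, 504 and 319 against 329, 480.1 and 303 tags, which overlapped. The Cebpb promoter had 182, 529, 378 and 114 against 313, 343 and 88.5, the widest spread of the 4, and Runx1 146, 186, 202 and 168 against 153, 136 and 131.

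In the unblocked fit Pol II called 0 members in C57 (0.319% of all regions, 5 members at an unadjusted p under 0.05, 0 by edgeR), 1 in BALB (0.707%), 0 in NOD (0%, 6 members, 0 by edgeR), 0 in PWK (1.72%, 12 members, 0 by edgeR) and 1 in SPRET (1.05%). Medians over all regions were 0.32 in BALB, -0.02 in NOD, -0.03 in PWK and -0.10 in SPRET. The BALB region, 26.3 kb upstream of Runx1, rose from 1.28, 14.2 and 2.19 to 12.8 and 53.2 tags, with overlapping groups (2.51 ± 0.67, limma adjusted p = 0.0328), and lost its call by median-ratio scaling, edgeR, the replicate block, and without 24 h replicate 2 or basal replicate 1 or 3. The SPRET region, 20.4 kb upstream of Cebpa, fell from 71.6, 54.8 and 73.9 to 25.4, 24 and 32.3 tags without overlap (-1.26 ± 0.25, limma adjusted p = 0.0413, 0.0613 by median-ratio scaling, and 0.0636 to 0.192 with any 1 of the 6 libraries left out). By the fold threshold, with at least 8 tags, 1 region was higher and 1 lower of 85 in C57 (4.79% of all regions), 5 and 3 of 63 in BALB (9.03%), 5 and 2 of 68 in NOD (5.35%), 6 and 0 of 67 in PWK (5.01%) and 0 of 55 in SPRET (3.24%). By median-ratio scaling these were 3 and 3 of 59 in BALB and 5 and 1 of 68 in NOD.

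Same-numbered Pol II libraries deviated together in C57, PWK and SPRET. Blocking on that number took the PWK count from 0 to 15. All 15 were higher at 24 h, against 9.78% of all PWK regions called in either direction with the block. They comprised 7 regions near Cebpb, 6 near Runx1 and 2 near Cebpa, and none near Spi1. The lowest adjusted p was at Runx1 27.7 kb upstream, with 2.12, 18.9 and 14.4 tags at basal and 15.1, 95.9 and 82.1 at 24 h (2.36 ± 0.31, limma adjusted p = 1.4e-11 with the block). The region 3.5 kb downstream of Cebpb rose from 474, 212 and 219.7 to 872, 340.5 and 474 (0.89 ± 0.23, limma adjusted p = 0.00248 with the block), and the PPARg site region 35.1 kb downstream from 5.64, 3.5 and 3.79 to 18.7, 12.9 and 13.7 (1.60 ± 0.41, limma adjusted p = 0.00207 with the block). In each of these the same-numbered library was higher after IL-4 in 3 of 3 pairs. SPRET had 4 calls with the block, 1 higher and 3 lower (8.39% of all regions): Cebpa 32.5 kb downstream rose by 1.25 ± 0.27, and Cebpa 20.4 kb upstream and Spi1 10.4 and 14.3 kb downstream fell by 1.26, 0.67 and 0.47 on the log2 scale. C57 had 0 with the block (0.809% of all regions, 8 members at an unadjusted p under 0.05).

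Basal H3K27ac differed between strains mainly where PWK and SPRET stood apart. Strain tables were normalised separately, so levels were set side by side without a test. Against C57, 0 of 61 matched regions in BALB (3.93% of all matched regions past 2.5-fold) and 0 of 66 in NOD (5.63%) differed 2.5-fold. In PWK 8 were higher and 7 lower of 64 (19.2%), and in SPRET 1 higher and 5 lower of 57 (23%). These are not all separate places. The same PWK region was matched to the C57 regions 12.8 and 13.3 kb downstream of Cebpb, and those at 21.3 and 21.8 kb and at 26.4 and 27.2 kb overlap. The distal Runx1 promoter had 351 and 394 tags in C57 and 106 and 106 in SPRET. Cebpb carried several such regions: the one 12.8 kb downstream had 56.3 and 42.8 tags in C57 and 5.15 and 7.05 in PWK, where the PU1 peak described above was also not listed. The region 26.4 kb downstream had 200.1 and 119 in C57 and 385 and 433 in PWK, where CEBPb and PPARg were listed already at basal. Spi1 30.3 kb downstream had 92.3 and 39.9 in C57 and 197 and 229 in PWK, again with basal CEBPb and PPARg peaks. The basal lists of both factors were longer in PWK and SPRET than in C57. SPRET also had basal CEBPb and PPARg peaks at both places, but its H3K27ac overlapped that of C57. It had 108 and 162 tags at the Cebpb region and 85.5 and 85.6 at the Spi1 region.

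Other regions were lower in the wild-derived strains. Spi1 39.5 kb upstream had 23.8 and 26.4 tags in C57, 0 and 1.57 in PWK and 3.42 and 4.61 in SPRET, although PU1 was listed there at basal in all 5 strains. Runx1 48.0 kb upstream had 35.3 and 106 tags in C57, against 8.58 and 7.83 for PWK and 10.3 and 13.8 for SPRET. PU1 was in all 10 lists at that place. A region 44.5 kb downstream of Cebpa was higher in SPRET, with 80.4 and 126 tags against 4.75 and 37.8 in C57.

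In the C57 time course H3K27ac near the 4 genes had its lowest median at 1 h. The basal and 24 h libraries are the same as in the C57 comparison above, counted over a larger set of regions. At 1 h 15 of 109 regions fell and 0 rose (9.72% of all regions called in either direction), with 45 at an unadjusted p under 0.05 and 5 called by edgeR. The median difference was -1.12 near the genes and -0.63 over all regions. Of the 15 regions, 8 lay 27.9 to 39.5 kb upstream of Cebpb and 6 lay 38.2 to 48.1 kb upstream of Runx1. The remaining region lay 37.3 kb downstream of Cebpa, at its described enhancer. Those 28.8, 28.2 and 27.9 kb upstream of Cebpb lay close to the start of another gene, Gm20431. Each of them overlapped its neighbour, so they share tags and are not separate places. In BALB the region 28.1 kb upstream had 847 and 938 tags of the promoter mark H3K4me3 at basal. The Cebpb region 38.5 kb upstream had 282 and 354 tags at basal, 61.1 and 25.8 at 1 h, 169 and 169 at 6 h and 163 and 176 at 24 h (-2.96 ± 0.56 at 1 h, limma adjusted p = 0.0117, 8.07e-06 to 0.0183 over the alternatives). Its 1 h libraries were below all others. Under median-ratio scaling 6 regions were called, without basal replicate 2 the count was 0, and without 1 h replicate 1 it was 45. Replicate 2 at 1 h, which had 20.5% of its tags in regions, was the lower one at this region.

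By the fold threshold 42 of 87 regions near the genes were lower at 1 h and 0 higher (40.3% of all regions). By median-ratio scaling 13 of 86 were lower and 3 higher, with a median of -0.46 near the genes and -0.31 over all regions. At 6 h 12 were higher and 12 lower of 92 (23.9%), and the genes parted: regions above the floor had a median of 0.62 near Cebpb, with 8 of 33 higher and 1 lower, and of -0.97 near Runx1, with 1 of 21 higher and 8 lower. Near Spi1 the median was -0.52 and near Cebpa -0.16, against -0.38 over all regions. By median-ratio scaling the Cebpa median turned to 0.74, while those near Cebpb, Runx1 and Spi1 were 0.83, -0.80 and -0.30, against -0.17 over all regions. The limma test called 1 region as risen and 4 as fallen at 6 h (5.13% of all regions, with 24 at an unadjusted p under 0.05 and a count of 8 from edgeR) and 1 as risen at 24 h (1.45%, 12 at an unadjusted p under 0.05, 1 by edgeR). The 6 h count was 0 without basal replicate 2 or without either 6 h library and 15 without either 1 h library. The 24 h count was 0 without basal replicate 1, 24 h replicate 2 or either 6 h library.

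The 4 regions that fell at 6 h lay 39.4 to 48.1 kb upstream of Runx1. The region 43.7 kb upstream had 55 and 135 tags at basal, 15.5 and 21 at 1 h, 11.6 and 5.48 at 6 h and 15.3 and 47.9 at 24 h (-3.28 ± 0.65 at 6 h, limma adjusted p = 0.00842, 6.85e-07 to 0.0265 over the alternatives). The region that rose at both 6 and 24 h was Cebpb 35.1 kb downstream, the PPARg site. It had 6.11 and 4.99 tags at basal, 5.41 and 5.16 at 1 h, 20.8 and 35.3 at 6 h and 41.6 and 39.4 at 24 h. The difference was 2.11 ± 0.57 at 6 h (limma adjusted p = 0.0387, 0.063 with a filter on low values) and 2.67 ± 0.57 at 24 h (limma adjusted p = 0.0243, 0.000401 to 0.0486 over the alternatives and up to 0.118 with a library left out).

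Other regions near the genes had values that moved in time without passing the test. Cebpb 3.3 kb downstream had 130.3 and 38.5 tags at basal, 159 and 14.1 at 1 h, 339.6 and 222 at 6 h and 160.4 and 55.8 at 24 h, so that the 6 h libraries were the highest (6 h limma adjusted p = 0.206). Spi1 0.7 kb downstream had 1705 and 1420.4, 567 and 309.8, 742 and 727, and 787 and 735 in the same order, with every treated library below the basal ones (1 h limma adjusted p = 0.0542). Pol II called 0 members at 6 and 24 h (0.566% and 0.677% of all regions), with 14 and 5 at an unadjusted p under 0.05 and 0 by edgeR. At 1 h it also called 0 (0.0911% of all regions, 26 members at an unadjusted p under 0.05, 0 by edgeR), but that fit assumed that its 1 library varied like the other groups. The 1 Pol II library at 1 h had 306 tags at this Spi1 region, against 630.2, 787, 661 and 682 at basal, 349.9 and 505 at 6 h and 535, 497 and 536 at 24 h.

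**Figure D4:**
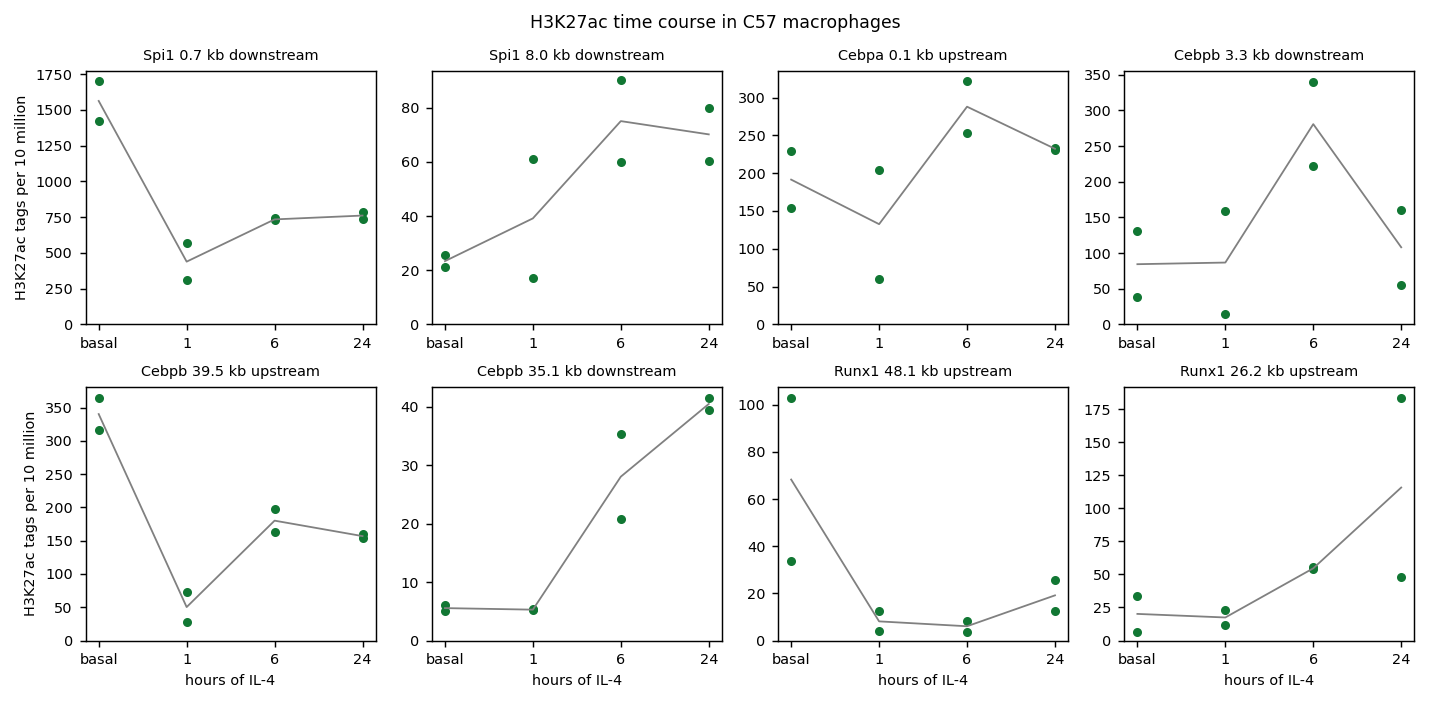
Normalised H3K27ac tags in C57 BMDMs at basal and after 1, 6 and 24 h of IL-4 (points are libraries, lines join group means, hours not to scale) at 8 regions near the 4 genes. Cebpb 39.5 kb upstream and Runx1 48.1 kb upstream are low at 1 h, and Cebpb 35.1 kb downstream stays near 5 tags at 1 h and reaches 39.4 and 41.6 tags at 24 h.

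EGR2 tags near the 4 genes gave 0 calls at 1, 6 and 24 h (0%, 0% and 0% of all EGR2 sites), with 2, 2 and 5 of 51 sites at an unadjusted p under 0.05 and 0 by edgeR. Without 1 h replicate 2 the 1 h count was 5. Medians over all sites were -0.59, 0.17 and 0.66. The Cebpa promoter site, 0.2 kb upstream, had the most EGR2 tags, 523 and 714 at basal, 244 and 615 at 1 h, 901 and 825 at 6 h and 925 and 552 at 24 h, and its basal and 24 h libraries overlapped while both 6 h libraries were above both basal ones. Sites with few tags at basal and more at 24 h were Spi1 8.6 kb downstream, with 13.6 and 13.4, 0.9 and 14.5, 24.4 and 54, and 66.4 and 56.6 tags in time order, and Cebpb 35.1 kb downstream, with 3.28 and 8.06, 5.42 and 10.6, 3.49 and 25, and 26.9 and 33.6. Runx1 26.7 kb downstream had 2.81 and 1.34 tags at basal, 0 and 10.6 at 1 h, 1.75 and 16.3 at 6 h and 22.4 and 17.3 at 24 h. At these 3 sites both 24 h libraries were above both basal libraries. Replicate 1 at 1 h had 5.38% of its tags in EGR2 sites and replicate 2 13.1%.

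The Egr2 knockout tables asked what EGR2 contributes at sites where its binding rose with IL-4, and 8 of these lay near the 4 genes. H3K27ac at 24 h was lower in LyzM-Cre Egr2 fl/fl than in Egr2 fl/fl BMDMs at 4 of the 8 sites and higher at 0. Of all sites 24.7% were called in either direction, and the medians were -1.56 near the genes and -0.50 over all sites. By edgeR 5 near the genes were called, and 1 of them, Runx1 38.9 kb downstream, was not lower (edgeR adjusted p = 0.00578). It had 291 and 328 tags at 24 h in Egr2 fl/fl and 326 and 405 in LyzM-Cre Egr2 fl/fl BMDMs, which overlapped. The difference there was 0.23, and 0.77 by median-ratio scaling. The sites were chosen on EGR2 binding. Loss of Egr2 itself could not be checked in these tables, while the study reported its efficient deletion in these BMDMs. The limma count of 4 was 1 without Egr2 fl/fl replicate 2 at 24 h and 2 without LyzM-Cre Egr2 fl/fl replicate 1 at 24 h.

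Spi1 8.6 kb downstream fell the most: H3K27ac at 24 h was 75.4 and 80.9 tags in Egr2 fl/fl and 9.35 and 14.5 in LyzM-Cre Egr2 fl/fl BMDMs, and at basal 29.8 and 29.2 against 11 and 16.8. The difference between genotypes at 24 h was -2.64 ± 0.34 (limma adjusted p = 0.000167, 2.71e-05 to 0.00167 over the alternatives), and the genotypes did not overlap at basal either. H3K4me2 at the same site fell as well (-1.29 ± 0.36, limma adjusted p = 0.00813), the 1 call of 8 for that mark (9.09% of all sites), which was lost without Egr2 fl/fl replicate 2 or LyzM-Cre Egr2 fl/fl replicate 1 at 24 h. Pol II, with 1 library per group, was not lower there. It was 27.2 tags in Egr2 fl/fl and 27.95 in LyzM-Cre Egr2 fl/fl BMDMs at 24 h, and 19.2 and 34.45 at basal.

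The other 3 sites that limma called as lower were 1 at each remaining gene. Runx1 26.7 kb downstream had 57.3 and 71.3 tags at 24 h in Egr2 fl/fl and 16.6 and 22.1 in LyzM-Cre Egr2 fl/fl BMDMs (-1.69 ± 0.40, limma adjusted p = 0.00601), with 10.2 and 8.82 against 7.02 and 15.1 at basal, where the genotypes overlapped. Cebpa 20.8 kb downstream had 29.1 and 41.8 against 11.4 and 11.6 (-1.52 ± 0.32, limma adjusted p = 0.00342), and 28.1 and 33.9 against 28.1 and 29.1 at basal. Cebpb 35.1 kb downstream had 34.2 and 36.6 against 10.4 and 11.6 (-1.60 ± 0.40, limma adjusted p = 0.00925, 0.0661 by median-ratio scaling), and 19.6 and 11.5 against 9.03 and 6.17 at basal. By contrast Spi1 16 kb downstream had 506 and 717 tags at 24 h in Egr2 fl/fl and 563 and 672 in LyzM-Cre Egr2 fl/fl BMDMs, a difference smaller than the spread between libraries. Pol II at 24 h, with 1 library per genotype, was lower in LyzM-Cre Egr2 fl/fl at these 3 called sites. It was 36.6 against 24 tags at Runx1 26.7 kb, 6.81 against 0 at Cebpa 20.8 kb and 8.51 against 0 at Cebpb 35.1 kb downstream.

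In Egr2 fl/fl BMDMs H3K27ac rose with IL-4 at 5 of the 8 sites (28.1% of all sites called, 3 near the genes by edgeR, median over all sites 0.50). The largest was Runx1 29.1 kb downstream, from 1.7 and 6.11 to 51.3 and 28.3 tags (3.16 ± 0.78, limma adjusted p = 0.00621), and the lowest adjusted p was at Runx1 26.7 kb downstream (2.63 ± 0.40, limma adjusted p = 0.000144). The rises at Spi1 8.6 kb, Cebpb 35.1 kb and Runx1 38.9 kb downstream (1.37, 1.18 and 0.57 on the log2 scale) lost their calls by median-ratio scaling. The count was 1 without Egr2 fl/fl replicate 1 at 24 h, 2 without replicate 2 at 24 h and 3 without basal replicate 2. H3K4me2 rose at 1 of 8 sites, Runx1 26.7 kb downstream (1.30 ± 0.40, limma adjusted p = 0.02, 0.0536 by median-ratio scaling, 8.21% of all sites called), a call lost without either 24 h library or basal replicate 1. The interaction of genotype and IL-4 called 0 members for H3K27ac (0% of all sites, 3 at an unadjusted p under 0.05) and for H3K4me2 (0.0428%, 0 at an unadjusted p under 0.05), with 0 by edgeR, so a difference of the IL-4 response between genotypes was not shown.

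PPARg at Cebpb 35.1 kb downstream had 11.8 and 28.3 tags at basal and 141 and 252 at 24 h in Egr2 fl/fl BMDMs. In LyzM-Cre Egr2 fl/fl BMDMs it had 20.2 and 26.3 at basal and 38.2 and 37.5 at 24 h. The 24 h libraries of the genotypes did not overlap (-2.29 ± 0.63, limma adjusted p = 0.219), and the median over all sites was -1.28. PPARg called 0 members by genotype, by IL-4 and for the interaction (0%, 0% and 0% of all sites, with 3, 1 and 1 of 8 at an unadjusted p under 0.05 and 0 by edgeR).

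PU1 at Runx1 26.7 kb downstream rose with IL-4 in Egr2 fl/fl BMDMs, from 2.55 and 2.09 to 23.1 and 10.5 tags (2.33 ± 0.58, limma adjusted p = 0.0212, 0.054 by median-ratio scaling). That was 1 call of 8 (8.23% of all sites), and leaving out any 1 of the 4 Egr2 fl/fl libraries ended it. In LyzM-Cre Egr2 fl/fl BMDMs it had 4.82 and 1.63 at basal and 4.46 and 3.53 at 24 h, below both Egr2 fl/fl libraries at 24 h (-1.74 ± 0.58, limma adjusted p = 0.0653). PU1 called 0 members by genotype (9.45% of all sites, with 1 at an unadjusted p under 0.05 and also 1 by edgeR, this Runx1 site, at an edgeR adjusted p of 0.0151) and 0 for the interaction (0%, with 1 and 0 by the same measures).

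CEBPb called 0 members by genotype (8.25% of all sites, 4 at an unadjusted p under 0.05, 1 by edgeR), 0 by IL-4 (2.1%, 3, 0 by edgeR) and 0 for the interaction (0%, 1, 0 by edgeR). STAT6 called 0 by genotype (0.0214%), 0 by IL-4 (11.8%) and 0 for the interaction (0%), with 0, 2 and 0 members at an unadjusted p under 0.05 and 0 by edgeR. At Spi1 16 kb downstream CEBPb had 234 and 90.2 tags at 24 h in Egr2 fl/fl and 222 and 109 in LyzM-Cre Egr2 fl/fl BMDMs, which overlapped (0.10 ± 0.69, limma adjusted p = 0.925). This was the site of the edgeR call by genotype, as higher in LyzM-Cre Egr2 fl/fl (edgeR adjusted p = 0.0309), and by median-ratio scaling its difference was 1.19, while the median over all sites as reported was -1.14.

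**Figure D5:**
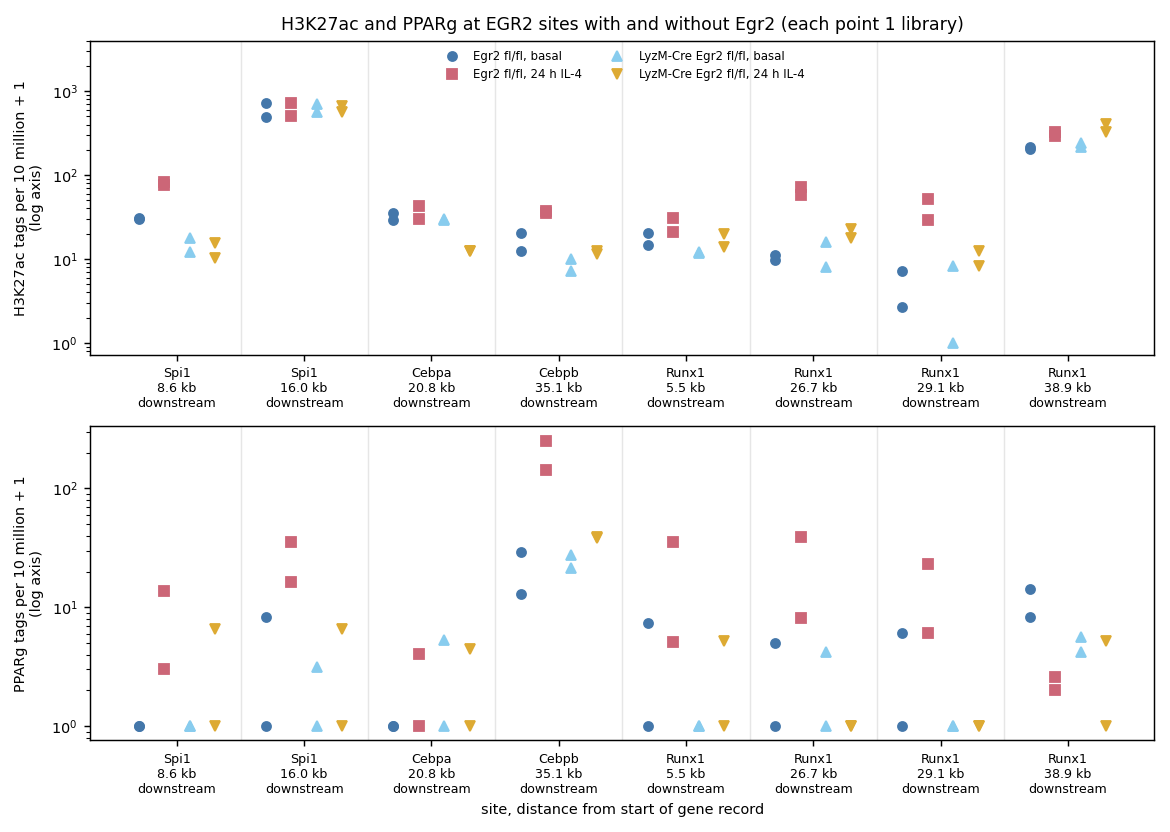
H3K27ac (upper panel) and PPARg (lower panel) normalised tags plus 1, log axes, at the 8 EGR2 sites near the 4 genes, in Egr2 fl/fl and LyzM-Cre Egr2 fl/fl BMDMs at basal and after 24 h of IL-4; each point is 1 library and points can coincide. The 24 h points of Egr2 fl/fl stand above those of the other 3 groups for H3K27ac at Spi1 8.6 kb and for both measures at Cebpb 35.1 kb downstream, while at Spi1 16 kb downstream the groups overlap for H3K27ac.

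Promoters of related factors and of textbook target genes were read from lists chosen with earlier results known. Of 23 family members and partners, 21 had a promoter region in C57, and 0 rose or fell in H3K27ac, H3K4me2, H3K4me3 or Pol II there. The median H3K27ac difference at 24 h was -0.74 over that list and -0.88 over 10 of 12 target genes, against -0.28 over all regions. Many of all regions have few tags. Over C57 regions with at least 16 tags in either group the median, from group means, was -0.62. The lists were not compared with promoters of like signal. Over the strains the calls were falls: Cd14, the LPS co-receptor, fell in Pol II in C57 (means of 267 and 79.7 tags, -1.72 ± 0.30, limma adjusted p = 0.027) and in SPRET (-1.56, limma adjusted p = 0.0109), Fcgr1, an Fc receptor, in H3K27ac and Pol II in PWK (-2.52, limma adjusted p = 0.0477, and -2.97, limma adjusted p = 0.00582), and Maf, a macrophage bZIP factor, in Pol II in PWK (-1.23, limma adjusted p = 0.0296).

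Over the 8 H3K27ac libraries of the time course and 9856 promoter regions, the promoters with the profile most like each member's were named by the highest Pearson r. For Spi1 they were those of Gm20605, Fbxo24 and Lrch4, which share 1 region (r = 0.986), and for Cebpa Mfsd13a, Cd320 and Rasal1 (0.974, 0.966 and 0.953). For Cebpb they were Fancf, Gas2 and Zfand6 (0.963, 0.963 and 0.958), and for Runx1 Relch and Pign, which share a region (0.981), and Pold1 (0.966). These are the highest of many correlations over few libraries, which share a mark and, in pairs, a time, and are given as a description.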

How the data were processed

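ChIP-seq libraries of BMDMs from 5 mouse strains and 2 Egr2 genotypes were analysed, and the labels call replicates of a group biological replicates. Reads had been aligned with Bowtie2 to strain genomes, shifted to mm10 and processed with HOMER and IDR, per the labels and the study's methods. The authors deposited the signal in each region as tags scaled to 10000000 per library. The deposited peak lists give a score and a tag count for each peak, 1 list per group. That score is an IDR score except in the PPARg lists and the EGR2 lists outside C57, which give a plain score. Strain and time course regions came from ATAC-seq peaks, EGR2 time course sites from EGR2 peaks, and knockout sites from EGR2 peaks induced by IL-4. Of the deposited columns, 4 matched no label and were not used. Inputs were not used.

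Members were regions and peaks with their centre within 50 kb of a gene start. The members and lists were chosen with earlier results of these data known. Tests used limma 3.58.1 (R 4.3.3) with a trend on log2(tags + 1), fitted over every region of a table, with Benjamini-Hochberg adjustment over the table and a threshold of 0.05. Fold changes are on that scale and understate changes of low regions. Totals in the headers turned 100% of the values into whole reads within 0.1 read, and edgeR 4.0.16 (quasi-likelihood, TMM) on those reads was an alternative, beside a pseudocount of 5, a filter on low values, median-ratio scaling, the replicate number as a block, windows of 25 kb and leaving out each library. Libraries of 1 group differed by 1.50 to 19.7 in chi-square per region (99 pairs), so no library was counted as a copy of another. Peaks and levels between strains had no test. Strain regions were matched within 500 bp.

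Regions were named by a rule: for each gene the promoter region, the strongest distal region, the largest differences of H3K27ac in C57 in each direction, the region nearest to elements described in textbooks, and regions called by limma. The region at the site in the most factor lists, the promoter of the Spi1 CCDS transcript, the Spi1 element measured from that transcript and other regions shown in the figures were chosen after their values were seen. Same-numbered Pol II libraries were treated as pairs because the correlation of their deviations from the group mean was over 0.1 in each of 3 pairs in C57 (0.144 to 0.480), PWK (0.438 to 0.631) and SPRET (0.414 to 0.442) and in the time course at 24 h (0.141 to 0.468). The limma steps were tested on simulated data. Figures and peak overlaps were made with Python 3.11.15, pandas 2.3.3, numpy 2.4.6 and matplotlib 3.10.9.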

Additional observations from a re-analysis of the deposited data

Results flagged for a closer look

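Pol II at the Spi1 region 8.0 kb downstream was 87.4 tags in C57 basal replicate 3, far from the other 3 basal libraries, with a gap of 0.849 of the whole range of the 4 libraries. Of 22 regions tested in this way it was the only one past the limit, and chance gives about 1 in 20.

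H3K4me3 at the Cebpa region 26.7 kb upstream was higher in every 24 h library than in every basal library in BALB and NOD (0.68 on the log2 scale in BALB) and lower in each in PWK (-0.332), at group means of 0.35 to 3.64 tags. Pol II at the Cebpb region 39.5 kb upstream was likewise higher at 24 h in BALB and NOD (0.563 in BALB) and lower in PWK (-0.395). Neither difference between strains was tested.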

How the results depend on the processing

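Counts of called members moved with the processing. For H3K27ac in the time course, the 1 h count of 15 was 6 by median-ratio scaling, 5 by edgeR and 40 with the replicate block, which called 25.8% of all regions (0 to 45 with a library left out), the 6 h count of 5 was 8 by edgeR and 19 with the block, at 13.7% (0 to 15), and the 24 h count of 1 was 4 with the block, at 7.86% (0 to 4). The Pol II count of 0 at 1 h was 1 by median-ratio scaling and 3 with the block, at 0.477%, and with a library left out it was 0 to 2 at 1 h, 0 to 8 at 6 h and 0 to 2 at 24 h. Over the 5 strains together, the count of 0 for H3K27ac was 80 of 385 with the block (17.4% of all regions), that for H3K4me2 25 (6.04%) and that for H3K4me3 29 (7.77%). The C57 H3K27ac regions of Spi1 0.8 and 14.4 kb downstream were among the 80 (limma adjusted p = 2.1e-08 and 1.05e-07). The Pol II count of 2 was 0 by median-ratio scaling, 1 by edgeR, 27 with the block (5.07%) and 1 with windows of 25 kb. With a library left out the ranges were 0 to 6 for H3K27ac, 0 to 51 for H3K4me2 and 1 to 4 for Pol II, and 0 to 5 for EGR2. The block was fitted to 2 pairs in all but the paired Pol II comparisons. These libraries share only a number, with correlations of deviations of 0.507 to 0.729 for H3K27ac in the strains, and in the time course of 0.0364 between basal and 6 h. The block changed no call in the EGR2 time course.

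At the Egr2 sites, the H3K27ac count by genotype of 4 was 1 to 5 with a library left out, and the count of 5 with IL-4 was 2 by median-ratio scaling and 3 by edgeR (1 to 5). The H3K4me2 count of 1 with IL-4 was 2 with a pseudocount of 5 or the block and 0 by median-ratio scaling (0 to 1), and that by genotype was 0 to 1. STAT6 with IL-4 had 1 with a pseudocount of 5 or the block (0 to 1), and PPARg 1 with a filter on low values, which was chosen after seeing the data. CEBPb had 2 with a pseudocount of 5 by genotype and by IL-4, and 1 by genotype by edgeR. PU1 had 1 by genotype with a pseudocount of 5, edgeR or the block (0 to 1), and its 1 call with IL-4 was 0 with the filter and by median-ratio scaling (0 to 1). Sites in all 10 lists were 19 for PU1 and 4 for STAT6 in windows of 25 kb, and 7 for CEBPb, 4 for STAT6 and 2 for PPARg in the better-scoring part of each list. Of the named regions, Cebpa 0.1 kb upstream went from 0.27 to -0.00583 without basal replicate 1 (up to 0.551 without replicate 2), and Runx1 24.4 kb downstream from -0.44 to 0.188 without 24 h replicate 1 and to 0.445 without basal replicate 2 (down to -1.33 without basal replicate 1). The cause of these shifts was not tested. Of values for single regions or single comparisons under the alternatives, 766 kept their direction and their side of the threshold (counts moved by at most 1.5 times), 147 were no longer past it, 21 newly passed it, 97 counts moved further and 3 differences changed sign. The depth, 7.51 to 46.5 reads for 16 tags, limits values under that level.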

Other observations

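The Runx1 region 26.4 kb upstream, whose EGR2 sequence and STAT6 lists are given above, had a wide spread between libraries in 4 strains, and SPRET had no matching region. H3K27ac was 8.82 and 47.1 tags at basal and 51.2 and 81 at 24 h in BALB, 3.32 and 41.3 against 65.1 and 205 in NOD, and 13.7 and 121 against 103 and 265 in PWK. Replicate 1 was the lower library in both conditions in these strains and in C57. EGR2 tags at the same place were 36.5 and 55.1 at basal, 28 and 90.7 at 1 h, 80.3 and 131 at 6 h and 207 and 114 at 24 h of IL-4 in C57, where both 24 h libraries were above both basal ones.

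The Cebpb promoter had 286 and 91.8 H3K27ac tags at basal and 366 and 93.8 at 24 h in BALB and 324 and 307 against 276 and 77.5 in SPRET. Replicate 2 was the lower library there in both conditions.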
